A study of Danio rerio with 40 samples.

Results

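The genes described here are 48 ribosome biogenesis factors of the zebrafish, among 14267 genes counted in whole embryos and larvae. They were picked out by a pattern of symbols, which was chosen with earlier results of these data known. The pattern takes the usual names of nucleolar processing proteins (utp, nop, nol and rrp genes) and exosome subunits. It also takes RNA polymerase I subunits and a set of single assembly factors. By role the 48 genes fell into 3 subunits of RNA polymerase I, 14 proteins of the small subunit processome, 6 core proteins of small nucleolar ribonucleoproteins (snoRNPs), 17 factors of large subunit assembly and export, and 8 subunits of the RNA exosome. All 48 passed the filter on low counts in every comparison, and the lowest count of any of them in any library was 376. Counts of this size carry a small counting error, which does not cover other differences between libraries of unlike depth.

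Ribosomes are built in the nucleolus. RNA polymerase I transcribes a long precursor of ribosomal RNA, on which snoRNPs modify single nucleotides and the small subunit processome folds and cuts the part that becomes the small subunit. Another set of GTPases, helicases and scaffold proteins assembles the large subunit and carries it out of the nucleus, and the exosome trims and degrades the RNA that is left over. Genes for these proteins are often transcribed together in growing cells.

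All animals were Segrest wild-type zebrafish reared with 0.003% 1-phenyl-2-thiourea, a blocker of pigment, and no mutation or transgene is named for any group. From 24 h after fertilization onward, sets of 25 to 30 animals were exposed to 300 pM 1a,25(OH)2D3, the active hormone made from vitamin D and here called calcitriol, or to its ethanol solvent, here called vehicle, with medium renewed every 24 h. They were taken for poly-A RNA at 2, 4, 6 and 7 days post fertilization (dpf), and each of the 8 groups of age and treatment has 5 libraries, 40 in all. A separate 24 h exposure of 6 dpf larvae is described in the labels without any library assigned to it, which leaves the exposure time of the older groups uncertain. Whether replicate libraries stem from different clutches is not stated, so every p-value below refers to the spread among these libraries, which may in part be technical.

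Total counts ran from 67235165 to 214502251 per library. The library with the lowest total in each group, replicate 1 of every vehicle group and replicate 5 of every treated group, held at most 81298182 counts, against at least 106850887 in the others. Several of these stood apart in the genes described here: at 6 dpf the vehicle library of lowest total had the highest level of its group for 30 of 48 genes, and at 7 dpf the treated one had the lowest of its group for 27. The catabolic enzyme gene cyp24a1, a direct target of the vitamin D receptor, was measured as a check of the treatment. With calcitriol it was 6.77-fold higher at 2 dpf (edgeR adjusted p = 0.0281), 7.97-fold higher at 6 dpf (0.000159) and 5.77-fold higher at 7 dpf (3.79e-06), and at 4 dpf a fold of 7.22 had an edgeR adjusted p of 0.0981.

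Levels below are CPM, a gene's count scaled to a common library total and adjusted with the trimmed mean of M values (TMM) over all libraries, and are compared between libraries of 1 gene and not between genes. Differences are log2 fold changes ± SE from edgeR, and a gene is said to be higher, lower, to have risen or to have fallen where its p, adjusted over all genes tested, was below 0.05. In whole animals a lower level can come from fewer cells of a type or from less RNA per cell, and the data cannot tell these apart. As a common scale, the median over the 48 genes of log2 CPM relative to vehicle at 2 dpf was taken in each library. Its mean ± SD (n = 5) was -0.07 ± 0.04 in vehicle at 4 dpf, 0.15 ± 0.16 at 6 dpf and 0.59 ± 0.10 at 7 dpf. With calcitriol it was 0.09 ± 0.10, 0.52 ± 0.10 and 0.96 ± 0.13 at the same ages. At 2 dpf the SD was 0.21 in vehicle, the reference of the scale, and 0.06 with calcitriol. The groups of 7 dpf did not overlap on this scale, with 0.73 in the highest vehicle library and 0.80 in the lowest with calcitriol. At 6 dpf they overlapped through vehicle replicate 1, which lay at 0.43 above the lowest treated library at 0.37, while the other vehicle libraries reached 0.14 at most.

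**Figure D1:**
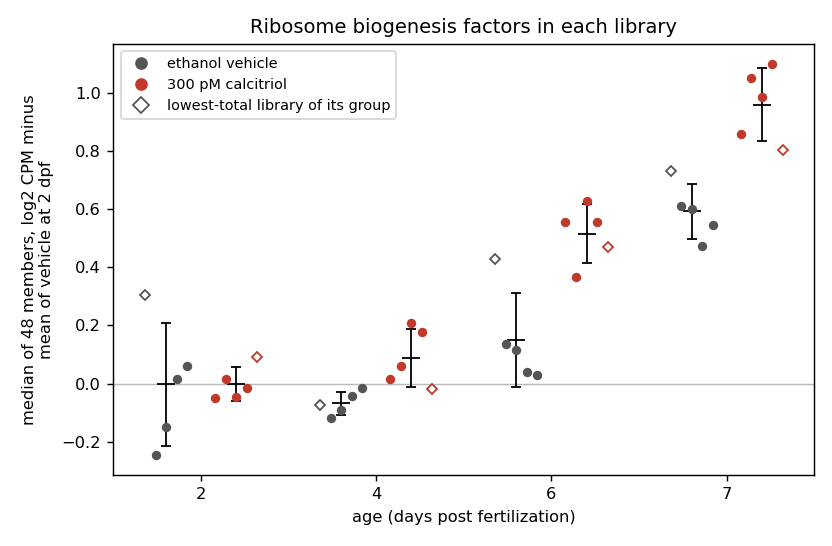
Median over the 48 genes of log2 CPM, relative to the mean of vehicle at 2 dpf (y axis), in each of the 40 libraries by age in days post fertilization (x axis), with group means and SD. At 2 dpf the vehicle libraries run from -0.25 to 0.31 and the calcitriol libraries lie within that range, from -0.05 to 0.09. The treated libraries of 7 dpf, at 0.80 and more, lie above all others.

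Single genes differed in how far they moved over the 8 groups. The ratio of the highest to the lowest group mean was 1.49 for nhp2, 2.07 for the median gene and 6.21 for ddx21, and it was above 3 for 11 genes. The group of 7 dpf with calcitriol had the highest mean for 41 of the 48 genes. The exceptions were exosc1, which was highest in vehicle at 7 dpf, and 6 genes that were highest in vehicle at 2 dpf (utp11l, dkc1, exosc2, exosc5, exosc6 and exosc9). Spread within a group was moderate, with a median coefficient of variation of 11.8% over the genes, 5.51% for bop1 and 37.7% for rrp15.

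At 6 dpf, 17 of the 48 genes were higher with calcitriol and none was lower, against 4.37% of all 13505 genes tested that were higher and 6.32% that were lower. All 48 had a positive log2 fold change, with a median of 0.39, where the median of all genes was 0.02. At 7 dpf, 32 were higher and 1, exosc1, was lower, against 14.6% of all 13434 genes higher and 14.2% lower. The median was then 0.40, where that of all genes was 0.01. The genes higher at 6 dpf and those higher at 7 dpf shared 14 members, which is 14 of 17 at the younger and 14 of 32 at the older age. Of the others, nop56, rrp12 and gnl2 passed at 6 dpf and not at 7 dpf. Another 13 passed as higher at neither age. Without TMM factors the median of all genes moved to 0.14 at 6 dpf and 0.18 at 7 dpf and that of the 48 genes to 0.50 and 0.57.

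The count at 6 dpf depended on the libraries. It was 35 without the lowest-total library of each group, 27 with DESeq2 and 41 with the column numbers of the exon table as a block. In the same fits 12.1%, 7.14% and 12.9% of all genes passed as higher, in place of 4.37%. The count was 0 after libraries with neighbouring exon table numbers, which resembled each other more than the rest, were summed to give 3 units per group. There 14 of the 48 genes had an unadjusted p below 0.05, against 10.7% of all genes, and 0.0513% of all genes were called higher. With those units as a block, an alternative chosen after the data were seen, 6 of the 48 genes and 2.80% of all genes were higher. The lowest-total libraries were all number 1 of the exon table and had no such neighbour. Fits without them keep only neighbouring libraries, so their SE and p may be too small if neighbours are technical repeats. Leaving out 1 library gave 30 without vehicle replicate 1, 21 without treated replicate 5, 19 without treated replicate 2 and 4 to 10 without any other library. In these fits 849 to 2310 of all genes were called in either direction. Only wdr36 and wdr75 passed in every such fit. At 7 dpf the count was 22 to 39 when 1 library was left out, with 2773 to 5678 of all genes called in either direction. The count was 43 without the lowest-total libraries, but 1 after summing to 3 units per group. In that fit 19 had an unadjusted p below 0.05, against 18.7% of all genes, and 0.838% of all genes were called higher. Without the lowest-total libraries 42 of the 48 genes and 28.6% of all genes were higher at 7 dpf. There 56.6% of all genes were called in either direction. Of the 33 genes that passed at 7 dpf, 22 did so whichever library was left out. The other 11 (noc3l, rrs1, polr1e, pes, nol6, mak16, exosc1, nop14, nmd3, polr1b and gnl3l) each missed the threshold in at least 2 of the 10 such fits, and polr1b passed in 1 of them.

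**Figure D2:**
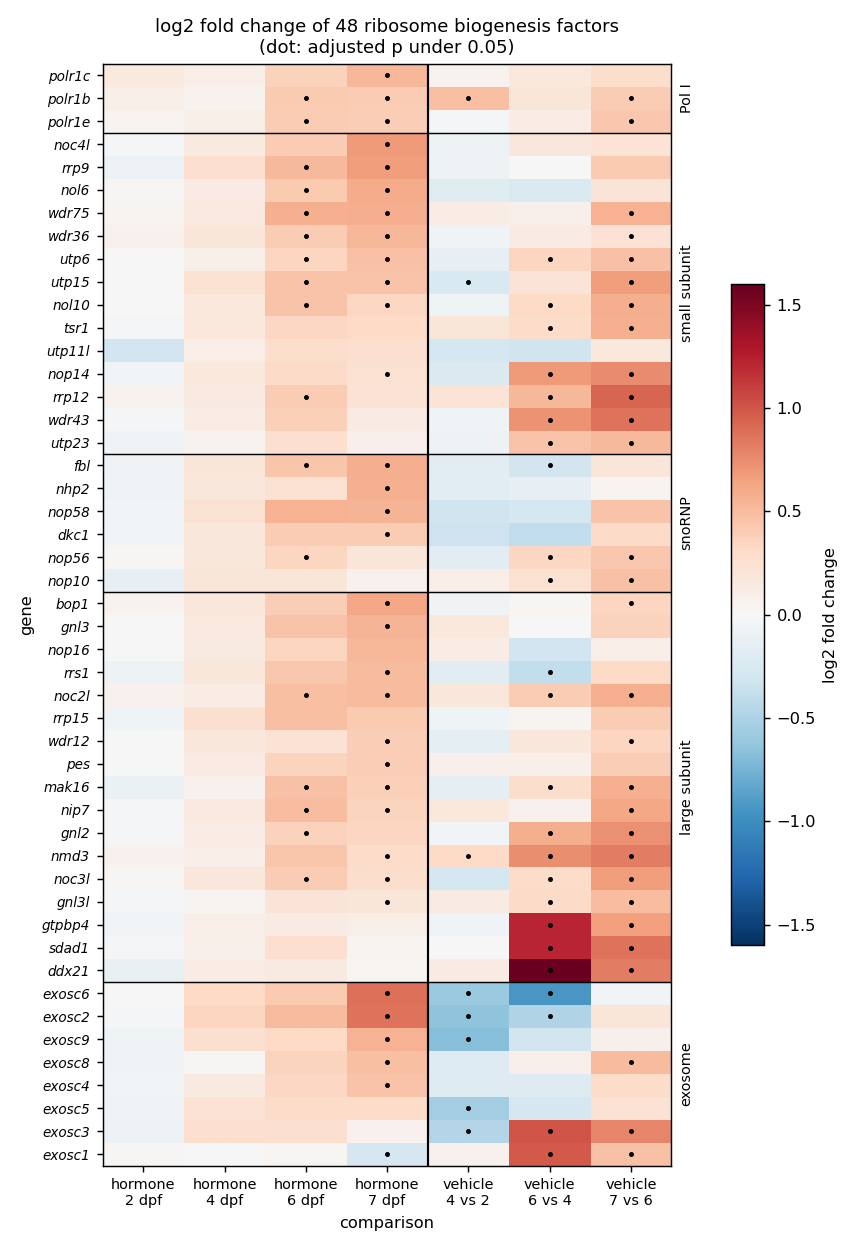
Log2 fold change (colour) of each of the 48 genes (y axis, grouped by role) in the hormone comparisons at 4 ages and the age comparisons in vehicle (x axis), with a dot where the edgeR adjusted p is below 0.05. The hormone columns carry dots at 6 dpf for 17 genes and at 7 dpf for 33, and none at 2 or 4 dpf.

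All 3 RNA polymerase I genes were higher with calcitriol at 7 dpf and 2 of them at 6 dpf, against 14.6% and 4.37% of all genes. For polr1b, the gene of the second-largest catalytic subunit, vehicle libraries of 6 dpf had 23.5, 24.3, 24.8, 22.9 and 22.9 CPM and treated ones 33.5, 29.5, 36.7, 33.1 and 23.3 CPM. Treated replicate 5 lay within the vehicle range and the other treated libraries above it, and the difference was 0.41 ± 0.11 (edgeR adjusted p = 0.0283). At 7 dpf polr1b had 25.4, 31.6, 33.3, 30.0 and 33.6 CPM in vehicle and 41.3, 45.1, 43.8, 45.2 and 26.7 CPM with calcitriol. Again only treated replicate 5 lay within the vehicle range, and the difference was 0.40 ± 0.14 (edgeR adjusted p = 0.0481). Without the lowest-total libraries it was 0.46 ± 0.06 (edgeR adjusted p = 4.57e-05), and with 3 merged units per group 0.36 ± 0.21 (edgeR adjusted p = 0.422). The subunit genes polr1c, which RNA polymerase III shares, and polr1e were 1.45-fold and 1.32-fold higher at 7 dpf, and at 6 dpf polr1e passed (0.40 ± 0.11) while polr1c had an edgeR adjusted p of 0.0527. As given above, polr1b and polr1e lost the call at 7 dpf when some single libraries were left out. With 3 merged units polr1c and polr1e did not pass at 7 dpf either (edgeR adjusted p = 0.173 and 0.394).

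Among the 14 processome genes, 8 were higher at 6 dpf and 9 at 7 dpf. The gene wdr75, whose product binds the start of the nascent precursor, had 36.8, 34.2, 35.2, 32.2 and 32.0 CPM in vehicle at 6 dpf and 53.1, 47.5, 58.0, 51.5 and 41.1 CPM with calcitriol. The groups did not overlap, and the difference of 0.57 ± 0.09 had the smallest p of the 48 genes at that age (edgeR adjusted p = 0.00242). Such a lack of overlap, with the treated group above, was seen for 4 of the 48 genes at 6 dpf, against 3.32% of all genes, and for 15 at 7 dpf, against 8.16%. At 7 dpf wdr75 had 45.0, 53.0, 54.2, 44.6 and 49.5 CPM in vehicle and 76.5, 82.7, 78.4, 80.9 and 49.8 CPM with calcitriol. Treated replicate 5 stood alone among the vehicle libraries, and the difference was 0.59 ± 0.13 (edgeR adjusted p = 0.00604) with it and 0.67 ± 0.07 without the lowest-total libraries.

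Further scaffold proteins of the processome were higher as well. The gene wdr36 was at 31.0 ± 1.51 CPM in vehicle and 40.6 ± 4.74 CPM with calcitriol at 6 dpf (0.41 ± 0.09, edgeR adjusted p = 0.0120) and at 35.7 ± 1.11 and 51.2 ± 7.86 CPM at 7 dpf (0.53 ± 0.10, edgeR adjusted p = 0.00316), with SD over 5 libraries. Its lowest treated library was above its highest vehicle library at 7 dpf, and at 6 dpf both were at 32.8 CPM when rounded, the treated one higher. The genes nol10 (0.46 ± 0.11 and 0.33 ± 0.08), utp15 (0.45 ± 0.11 and 0.45 ± 0.09) and utp6 (0.34 ± 0.09 and 0.47 ± 0.10) were higher at 6 and at 7 dpf, each value being a log2 fold change. The assembly factor nol6 was higher at 6 dpf (0.42 ± 0.10, edgeR adjusted p = 0.0157). At 7 dpf its vehicle libraries had 25.6, 29.5, 29.5, 25.2 and 25.4 CPM and treated ones 42.6, 48.4, 44.2, 45.9 and 21.3 CPM. That lone library was the lowest of both groups, and the difference was 0.59 ± 0.18 (edgeR adjusted p = 0.0309) with it and 0.73 ± 0.07 (7.62e-06) without the lowest-total libraries.

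The largest log2 fold changes of the processome genes at 7 dpf were those of noc4l and rrp9. The gene rrp9 encodes a protein specific to the snoRNP that starts processome assembly, and noc4l a partner of nop14. For noc4l the vehicle libraries of 7 dpf had 18.2, 15.6, 18.0, 17.0 and 17.6 CPM and the treated ones 25.7, 30.2, 29.8, 33.2 and 19.4 CPM. All treated libraries were above all vehicle libraries, and the difference was 0.69 ± 0.13 (edgeR adjusted p = 0.00233). At 6 dpf noc4l did not pass (0.41 ± 0.13, edgeR adjusted p = 0.0728), with vehicle replicate 1 at 19.8 CPM above the other vehicle libraries at 13.3 to 14.6 CPM, and it was 0.59 ± 0.08 (edgeR adjusted p = 0.000363) without the lowest-total libraries. For rrp9 vehicle replicate 1 of 7 dpf had 30.3 CPM, other vehicle libraries 17.6 to 19.7 CPM and treated libraries 29.8 to 36.3 CPM. The difference was 0.66 ± 0.14 (edgeR adjusted p = 0.00440), and at 6 dpf 0.52 ± 0.15 (edgeR adjusted p = 0.0455).

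The remaining processome genes passed at 1 age or at neither. The late export factor rrp12 was higher at 6 dpf (0.41 ± 0.11) and missed the threshold at 7 dpf (0.23 ± 0.10, edgeR adjusted p = 0.0976), while nop14 did the reverse (0.30 ± 0.12 and 0.25 ± 0.09, edgeR adjusted p = 0.147 and 0.0454). At neither age did wdr43 (0.38 ± 0.14 and 0.14 ± 0.09), tsr1 (0.33 ± 0.13 and 0.32 ± 0.12), utp23 (0.27 ± 0.13 and 0.09 ± 0.14) or utp11l (0.28 ± 0.24 and 0.27 ± 0.22) pass, although all 8 of these log2 values were positive.

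The snoRNPs are of 2 kinds, one that methylates ribosomal RNA and one that turns uridine into pseudouridine. The methyltransferase gene fbl (fibrillarin) had 79.5, 56.8, 67.0, 62.5 and 60.4 CPM in vehicle at 6 dpf and 89.9, 83.2, 89.4, 76.4 and 99.6 CPM with calcitriol. Vehicle replicate 1 reached above the lowest treated library and the other vehicle libraries lay below all treated ones; the difference was 0.44 ± 0.11 (edgeR adjusted p = 0.0228). At 7 dpf fbl had 89.7, 69.5, 71.8, 67.1 and 68.6 CPM in vehicle and 104, 117, 115, 124 and 85.3 CPM with calcitriol. The lowest-total libraries of the groups overlapped and the others did not, and the difference was 0.58 ± 0.12 (edgeR adjusted p = 0.00344), or 0.74 ± 0.06 without those libraries. Of its scaffold partners, nop56 was higher at 6 dpf (1.27-fold, edgeR adjusted p = 0.0193) and not at 7 dpf (1.15-fold, edgeR adjusted p = 0.0667). The other scaffold, nop58, was 1.47-fold at 6 dpf (edgeR adjusted p = 0.0613) and 1.45-fold higher at 7 dpf (edgeR adjusted p = 0.00930). In the pseudouridine branch dkc1 (dyskerin, the enzyme) and nhp2 were higher at 7 dpf, by 0.40 ± 0.10 and 0.57 ± 0.11, and nop10 was not (0.07 ± 0.06, edgeR adjusted p = 0.452). None of the 3 passed at 6 dpf, where their log2 fold changes were 0.40 ± 0.15, 0.25 ± 0.12 and 0.19 ± 0.08.

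**Figure D3:**
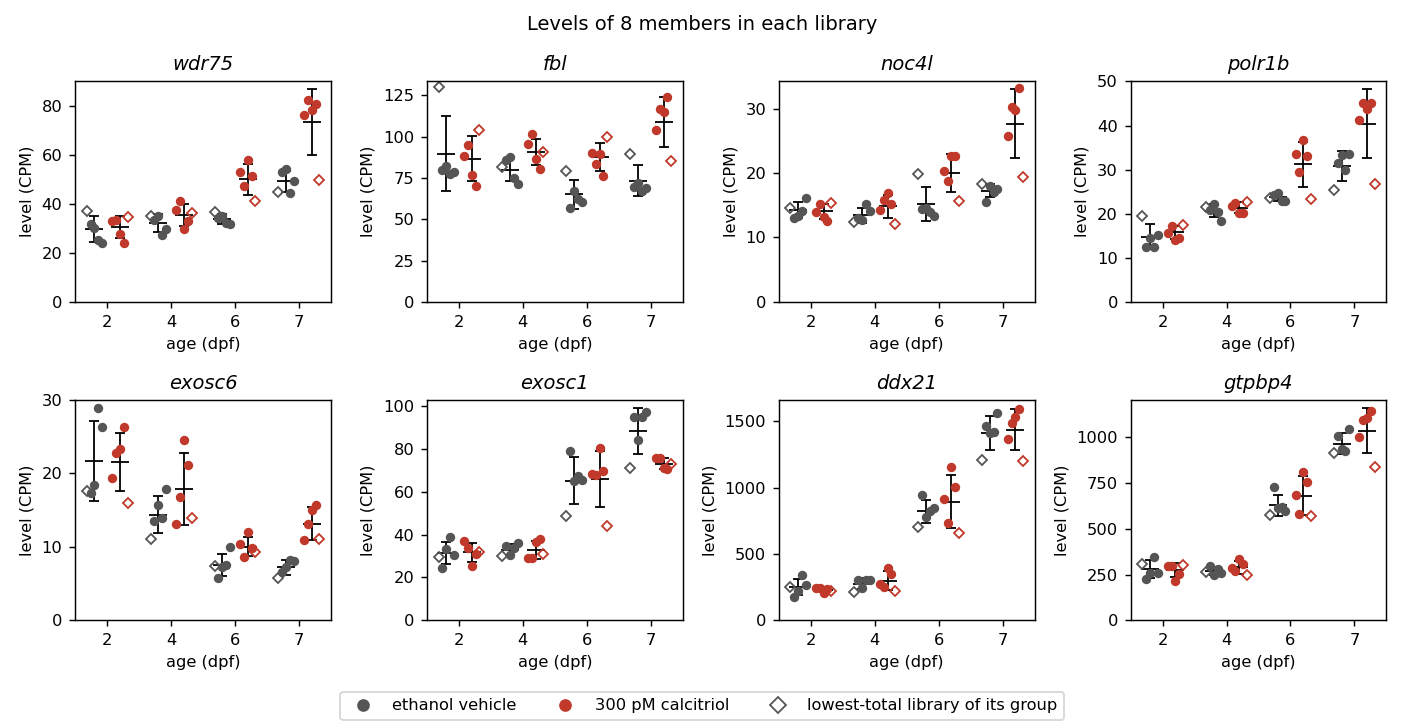
Level in CPM (y axis, from 0) of 8 genes in each library by age (x axis, dpf), with group means and SD, vehicle and calcitriol side by side. In wdr75, fbl, noc4l, polr1b and exosc6 the treated libraries of 7 dpf lie mostly above vehicle, while in ddx21 and gtpbp4 both groups climb with age and overlap.

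Of the 17 large subunit factors, 5 were higher at 6 dpf and 11 at 7 dpf. The genes bop1, pes and wdr12 encode a trimer that processes the precursor of the large subunit, and all 3 were higher at 7 dpf. The level of bop1 was even among vehicle libraries of 7 dpf, at 50.4, 53.2, 55.3, 50.5 and 56.7 CPM, and was 80.7, 90.3, 90.5, 93.1 and 52.5 CPM with calcitriol. Treated replicate 5 fell inside the vehicle range and the other treated libraries far above it, for a difference of 0.62 ± 0.14 (edgeR adjusted p = 0.00582). The log2 fold changes of pes and wdr12 at 7 dpf were 0.39 ± 0.12 and 0.40 ± 0.07; at 6 dpf those of bop1, pes and wdr12 were 0.40 ± 0.13, 0.36 ± 0.13 and 0.23 ± 0.12, with edgeR adjusted p of 0.0737, 0.101 and 0.272.

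Among the nucleolar GTPases, gnl3 (nucleostemin) had 78.2, 62.2, 66.8, 64.1 and 67.6 CPM in vehicle at 7 dpf and 87.5, 99.5, 102, 114 and 88.0 CPM with calcitriol. The groups did not overlap, and the difference was 0.54 ± 0.09 (edgeR adjusted p = 0.00152). At 6 dpf gnl3 narrowly missed the threshold (0.46 ± 0.14, edgeR adjusted p = 0.0519), with vehicle replicate 1 at 72.2 CPM and the other vehicle libraries at 44.9 to 50.9 CPM. Of its relatives, gnl2 was higher at 6 dpf (0.37 ± 0.10) and missed the threshold at 7 dpf (0.34 ± 0.12, edgeR adjusted p = 0.0560), and gnl3l passed at 7 dpf (0.19 ± 0.07, edgeR adjusted p = 0.0498) and not at 6 dpf (0.21 ± 0.07, edgeR adjusted p = 0.0933). The GTPase gtpbp4 passed at neither age (0.13 ± 0.11 and 0.11 ± 0.09).

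The assembly factors noc2l (0.48 ± 0.11 and 0.51 ± 0.12), nip7 (0.49 ± 0.12 and 0.36 ± 0.09), noc3l (0.40 ± 0.11 and 0.28 ± 0.07) and mak16 (0.46 ± 0.13 and 0.38 ± 0.12) were higher at both ages. At 7 dpf rrs1 (0.51 ± 0.15) and the export adaptor nmd3 (0.30 ± 0.10) passed as well, and at 6 dpf they had 0.43 ± 0.16 and 0.44 ± 0.15. The assembly factors rrp15 (0.42 ± 0.30) and nop16 (0.53 ± 0.20) did not pass at 7 dpf. In rrp15 the lowest-total libraries were the highest of their groups, at 41.2 CPM against 17.0 to 20.0 CPM in the other vehicle libraries and at 52.7 CPM against 21.3 to 30.0 CPM in the other treated ones. By contrast sdad1 and the RNA helicase gene ddx21 were close to 0 at 7 dpf with narrow errors (0.04 ± 0.08 and 0.03 ± 0.09). For ddx21 the vehicle libraries of 7 dpf had 1209, 1463, 1413, 1420 and 1565 CPM and the treated ones 1367, 1490, 1537, 1593 and 1201 CPM, and the groups overlapped over nearly their whole range.

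The exosome genes divided among themselves. None of the 8 passed at 6 dpf, where 5 had an unadjusted p below 0.05 in edgeR, against 24.5% of all genes, and at 7 dpf 5 were higher, 1 was lower and 2 did not pass. The largest 2 log2 fold changes of all 48 genes at 7 dpf were here. For exosc6, a subunit of the ring through which RNA is threaded, vehicle libraries had 5.77, 6.65, 7.30, 8.25 and 8.11 CPM and treated libraries 10.9, 13.2, 15.0, 15.7 and 11.0 CPM. The groups were well apart, and exosc6 was 1.84-fold higher (0.88 ± 0.13, edgeR adjusted p = 0.000676); it was the only one of the 48 that passed at 7 dpf in all 9 alternatives of scaling, filter, tool, block, depth and merging and in all 10 fits that left out 1 library. For exosc2, a subunit of the cap that receives RNA, the levels were 12.5, 10.0, 11.9, 10.7 and 11.2 CPM in vehicle and 19.0, 21.2, 21.4, 25.3 and 15.2 CPM with calcitriol. The groups did not overlap either, and exosc2 was 1.82-fold higher (0.87 ± 0.13, edgeR adjusted p = 0.000497). The ring genes exosc4, exosc8 and exosc9 were 1.38-fold, 1.39-fold and 1.48-fold higher, each without overlap, and exosc5 had 0.29 ± 0.11 (edgeR adjusted p = 0.0649).

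The other cap genes, exosc1 and exosc3, were not higher at 7 dpf. The level of exosc1 in vehicle libraries of 7 dpf was 71.1, 94.6, 84.3, 94.9 and 97.0 CPM and with calcitriol 75.5, 75.8, 70.9, 70.6 and 72.7 CPM. The treated libraries were tightly grouped and below all vehicle libraries but replicate 1. The difference was -0.27 ± 0.09 (edgeR adjusted p = 0.0404), and -0.33 ± 0.06 (edgeR adjusted p = 0.000556) without the lowest-total libraries. It also passed with DESeq2, without the filter, with RLE factors and with the exon table numbers as a block. It did not pass without TMM factors, with the replicate number as a block or with 3 merged units (-0.22 ± 0.13, edgeR adjusted p = 0.428). When 1 library was left out, it passed only without vehicle replicate 1, vehicle replicate 3 or treated replicate 5. For exosc3 the log2 fold change at 7 dpf was 0.07 ± 0.08, with 77.4 ± 3.61 CPM in vehicle and 81.1 ± 8.49 CPM with calcitriol (SD, n = 5).

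At 2 and 4 dpf no member passed the test. At 2 dpf 0.00757% of all 13203 genes were higher and 0% lower, none of the 48 genes had an unadjusted p below 0.05 in edgeR, against 0.833% of all genes, and DESeq2 also called none of them. Their log2 fold changes ran from -0.30 ± 0.17 for utp11l to 0.16 ± 0.16 for polr1c with a median of -0.02, which was 0.01 without TMM factors. Among the best-known members, polr1b (0.09 ± 0.13), fbl (-0.05 ± 0.16), dkc1 (-0.04 ± 0.16), wdr75 (0.04 ± 0.14), bop1 (0.06 ± 0.07), gnl3 (-0.01 ± 0.12), nmd3 (0.06 ± 0.09), ddx21 (-0.12 ± 0.15) and exosc2 (-0.01 ± 0.16) were all within their SE of 0. At 4 dpf 0% of 13410 genes were higher and 0% lower with edgeR. DESeq2 called none of the 48 genes there, against 0.768% of all genes in either direction. In edgeR 47 of the 48 genes had a positive value, with a median of 0.15 where that of all genes was 0.00. Of the 48 genes 11 had an unadjusted p below 0.05 in edgeR, against 6.89% of all genes. Of these 11, the largest values were those of exosc2 (0.35 ± 0.14), rrp9 (0.27 ± 0.10), exosc3 (0.27 ± 0.12), utp15 (0.24 ± 0.09) and exosc5 (0.23 ± 0.09), and those of nop56, nop10, wdr12, bop1, nol10 and tsr1 were 0.17 to 0.19. The polymerase gene polr1b (0.05 ± 0.08), the processome genes wdr75 (0.15 ± 0.11) and nol6 (0.13 ± 0.12) and the helicase gene ddx21 (0.12 ± 0.16) had larger SE relative to their values. With the exon table numbers as a block, 16 of the 48 genes were higher at 4 dpf, against 5.22% of all genes. These 16 were led by exosc2 (0.36 ± 0.06, edgeR adjusted p = 0.00554), nop58 (0.24 ± 0.04, 0.00606) and fbl (0.19 ± 0.04, 0.0132). For exosc2 at 4 dpf the libraries had 14.7, 10.2, 13.0, 15.3 and 17.4 CPM in vehicle and 14.9, 16.1, 18.9, 20.9 and 18.2 CPM with calcitriol, with overlap between the groups.

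In vehicle animals 2 of the 48 genes rose and 6 fell from 2 to 4 dpf, against 32.1% of all 13379 genes that rose and 30.2% that fell. The 5 exosome genes exosc2 (-0.65 ± 0.16), exosc3 (-0.46 ± 0.12), exosc5 (-0.56 ± 0.13), exosc6 (-0.60 ± 0.17) and exosc9 (-0.68 ± 0.19) fell, and so did utp15 (-0.24 ± 0.09). Levels of exosc6 in vehicle were 17.6, 17.3, 18.4, 28.9 and 26.3 CPM at 2 dpf and 11.0, 13.5, 15.7, 13.9 and 17.8 CPM at 4 dpf, so the groups overlapped only through 4 dpf replicate 5. The genes that rose were polr1b (0.48 ± 0.13) and nmd3 (0.32 ± 0.08). Values that did not pass included those of fbl (-0.16 ± 0.15), nop58 (-0.32 ± 0.19), dkc1 (-0.33 ± 0.16), wdr75 (0.11 ± 0.13), rrp12 (0.22 ± 0.11), bop1 (-0.06 ± 0.07), gnl3 (0.17 ± 0.12), gtpbp4 (-0.06 ± 0.12) and ddx21 (0.13 ± 0.17). The median of the 48 genes was -0.08 and became 0.13 without TMM factors, where that of all genes became 0.20. In that fit 11 genes rose and 2, exosc2 and exosc6, fell, against 40.4% of all genes that rose and 2587 of 13379 that fell. The count of 8 genes was also 12 or 13 when 2 dpf replicate 1 or 2 was left out. With the replicate number as a block 3 genes rose and 13 fell. The block treats same-numbered vehicle libraries as pairs, which no label states. Of all genes 36.4% rose in that fit, and 71.9% were called in either direction. The genes added were noc2l as a rise and dkc1, nop58, nop56, noc3l, nop14, nol6 and exosc4 as falls.

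From 4 to 6 dpf, 20 of the 48 genes rose in vehicle and 4 fell, against 18.1% of all 13466 genes that rose and 17.8% that fell. The steepest rises were in large subunit and exosome genes. The gene ddx21 had 215, 305, 246, 303 and 305 CPM at 4 dpf and 706, 947, 779, 827 and 848 CPM at 6 dpf, a 2.99-fold rise (1.58 ± 0.11, edgeR adjusted p = 9.54e-06). The GTPase gene gtpbp4 had 263, 299, 248, 279 and 258 CPM at 4 dpf and 577, 729, 616, 618 and 596 CPM at 6 dpf, a 2.33-fold rise (1.22 ± 0.08). The ranges of both genes were far apart at these ages. The genes sdad1 (1.22 ± 0.09), exosc3 (1.01 ± 0.07), exosc1 (0.98 ± 0.11), nmd3 (0.75 ± 0.07), wdr43 (0.72 ± 0.08), nop14 (0.68 ± 0.09), gnl2 (0.58 ± 0.08) and rrp12 (0.53 ± 0.08) rose by more than 0.5 on the log2 scale, also with groups that did not overlap. In all, 17 genes did not overlap in the direction of a rise, against 12.6% of all genes. The smaller rises were those of utp23, noc2l, utp6, nop56, nol10, gnl3l, noc3l, mak16, tsr1 and nop10, at 0.24 to 0.46.

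The 4 genes that fell from 4 to 6 dpf were exosc6 (-0.93 ± 0.15), exosc2 (-0.49 ± 0.18), rrs1 (-0.39 ± 0.14) and fbl (-0.29 ± 0.11). Of these, exosc6 alone passed without the filter on low counts and whichever library was left out. The number of genes that fell was 11 without 6 dpf replicate 1, the lowest-total library, and as few as 1 without another library. In exosc6 the 6 dpf libraries, at 7.36, 5.81, 7.21, 7.51 and 9.94 CPM, all lay below those of 4 dpf. No RNA polymerase I gene passed at this step, polr1b being at 0.19 ± 0.08 (edgeR adjusted p = 0.0647). The values of wdr75 (0.08 ± 0.09), wdr36 (0.13 ± 0.09), bop1 (0.03 ± 0.07), gnl3 (-0.01 ± 0.12), rrp9 (0.00 ± 0.14) and nip7 (0.07 ± 0.13) were close to 0 and did not pass either. The median of the 48 genes was 0.17 with TMM factors but -0.05 without them, where the median of all genes was -0.23. Without them 11 of the 48 genes rose and 14 fell, against 9.68% of all genes that rose and 5432 of 13466 that fell. The rises of ddx21, gtpbp4, sdad1, exosc3, exosc1, nmd3, wdr43, nop14, gnl2, rrp12 and noc2l, and the falls of exosc6, exosc2, rrs1 and fbl, passed under both scalings. With the replicate number as a block 22 genes rose and 8 fell, against 23.2% of all genes that rose and 3258 of 13466 that fell. That block added polr1b (0.20, edgeR adjusted p = 0.0248) and utp15 to the rises and dkc1, nol6, exosc4 and exosc5 to the falls.

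From 6 to 7 dpf, 29 genes rose in vehicle and none fell, against 7.1% of all 13464 genes that rose and 4.92% that fell. The median was 0.44, and 0.36 without TMM factors. The genes with the smallest p in each role were wdr43 (0.87 ± 0.07), exosc3 (0.78 ± 0.06), nmd3 (0.82 ± 0.07), nop10 (0.47 ± 0.06) and polr1b (0.41 ± 0.08), and the largest change was that of rrp12 (0.94 ± 0.09, edgeR adjusted p = 0.000180). For rrp12 the lowest level at 7 dpf, 187 CPM, was above the highest at 6 dpf, 136 CPM, and 25 of the 48 genes, rrp12 among them, were without overlap, against 5.22% of all genes. Both ddx21 (0.81 ± 0.09) and gtpbp4 (0.65 ± 0.07) rose further. Genes that did not pass at this step included fbl (0.20 ± 0.11), nhp2 (0.05 ± 0.13), exosc6 (-0.04 ± 0.14), exosc2 (0.20 ± 0.15), noc4l (0.21 ± 0.11) and nol6 (0.21 ± 0.08). With the replicate number as a block 42 genes rose, against 16.9% of all genes, and fbl (0.20, edgeR adjusted p = 0.00432), noc4l (0.23, edgeR adjusted p = 0.0393) and nol6 (0.21, edgeR adjusted p = 0.0127) were among those added.

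The change from 4 to 6 dpf in vehicle and the difference with calcitriol at 7 dpf come from separate libraries and are set side by side. Same-numbered vehicle libraries of 6 and 7 dpf deviated together, however (correlation 0.39 to 0.78). Vehicle of 6 dpf raises the first value and vehicle of 7 dpf lowers the second, so shared deviations can add to a negative correlation. Of the 20 genes that rose with age from 4 to 6 dpf, 8 were higher with calcitriol at 7 dpf and 12 were not (ddx21, gtpbp4, sdad1, exosc1, exosc3, wdr43, tsr1, utp23, nop10, nop56, rrp12 and gnl2). All 4 genes that fell with age were higher with calcitriol at 7 dpf, as were 20 of the 24 genes that did neither. Of all genes 14.6% were higher at 7 dpf, and their share within each class of age change was not computed. Across the 48 genes the 2 log2 values had a Pearson r of -0.77 and a Spearman rho of -0.73; across all 13402 genes in both fits these were -0.28 and -0.32. These are descriptions across genes, which share libraries and are not independent replicates.

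**Figure D4:**
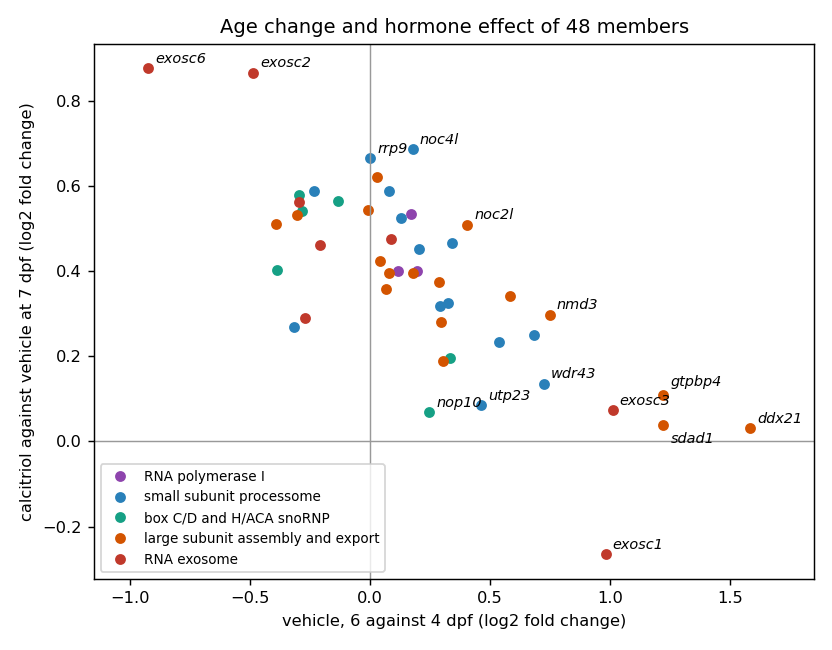
Log2 fold change with age in vehicle, 6 against 4 dpf (x axis), against log2 fold change with calcitriol at 7 dpf (y axis) for the 48 genes, coloured by role. The points run from exosc6 at the upper left (-0.93 and 0.88) to ddx21 at the right (1.58 and 0.03), with exosc1 lowest (0.98 and -0.27).

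Whether the hormone difference changed with age was tested directly over all 40 libraries. In the joint test of the 4 ages noc4l (edgeR adjusted p = 0.0169) and rrp9 (edgeR adjusted p = 0.0464) passed, 2 of the 48 genes, against 7.79% of all 13650 genes. The hormone difference of noc4l was larger at 7 than at 2 dpf by 0.70 ± 0.17 (edgeR adjusted p = 0.00370) and larger at 7 than at 4 dpf by 0.54 ± 0.17 (edgeR adjusted p = 0.0420). For rrp9 it was larger at 7 than at 2 dpf by 0.75 ± 0.20 (edgeR adjusted p = 0.0100), and none of the other 9 differences between pairs of ages of these genes passed. The number of genes that passed the joint test was 20 without the lowest-total libraries, 14 with DESeq2 and 24 without TMM factors, and the share of all genes that passed was 22.7%, 10.7% and 12.4% in the same fits. With noc4l, the interaction passed in 39 of 40 fits that left out 1 library, and with rrp9 in 12 of 40. The number of genes ran from 0 without treated replicate 4 of 7 dpf to 14 without treated replicate 5 of 7 dpf. Of all genes 832 and 1719 passed in the same fits.

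Taken one pair of ages at a time, with p adjusted over all genes within that pair, more genes passed. Between 7 and 2 dpf the hormone difference was larger at 7 dpf for 11 of the 48 genes and smaller for none, against 12.1% of all genes that passed in either direction. Beside noc4l and rrp9 these were exosc6 (0.88 ± 0.24), exosc2 (0.87 ± 0.23), fbl (0.62 ± 0.18), nhp2 (0.61 ± 0.16), bop1 (0.55 ± 0.16), gnl3 (0.54 ± 0.16), wdr75 (0.53 ± 0.17), exosc8 (0.53 ± 0.16) and utp15 (0.44 ± 0.13), each value being the difference of 2 log2 fold changes. The count was 29 without TMM factors and 23 without the lowest-total libraries, when 16.6% and 27.0% of all genes passed, and 7 without vehicle replicate 1 of 2 dpf or treated replicate 4 of 7 dpf and 18 without treated replicate 5 of 7 dpf. Whichever library of 2 or 7 dpf was left out, noc4l, rrp9, exosc2, exosc6, nhp2 and bop1 passed. Between 6 and 2 dpf nol10 passed (0.44 ± 0.12), against 2.43% of all genes, and between 7 and 4 dpf noc4l alone, against 6.69%. No member passed between 4 and 2, 6 and 4 or 7 and 6 dpf, where 0%, 0.154% and 0.249% of all genes did.

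Further genes of the pathway were taken from a list of 112 ribosome biogenesis genes outside the symbol rule and measured in the same fits. Of the 66 that were tested, none passed at 2 or 4 dpf in edgeR, 26 were higher with calcitriol at 6 dpf and 41 at 7 dpf, against 4.37% and 14.6% of all genes, and none was lower at either age. Their medians were 0.36 and 0.37. The kinase gene riok2, which acts in the last steps of small subunit maturation, was 1.47-fold higher at 6 dpf (edgeR adjusted p = 0.00374) and 1.36-fold higher at 7 dpf. In vehicle 2 of the 66 rose and 14 fell from 2 to 4 dpf, both smaller shares than the 32.1% and 30.2% of all genes. From 4 to 6 dpf 23 rose and 4 fell, against 18.1% and 17.8% of all genes, and from 6 to 7 dpf 38 rose and none fell, against 7.1% and 4.92%.

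**Figure D5:**
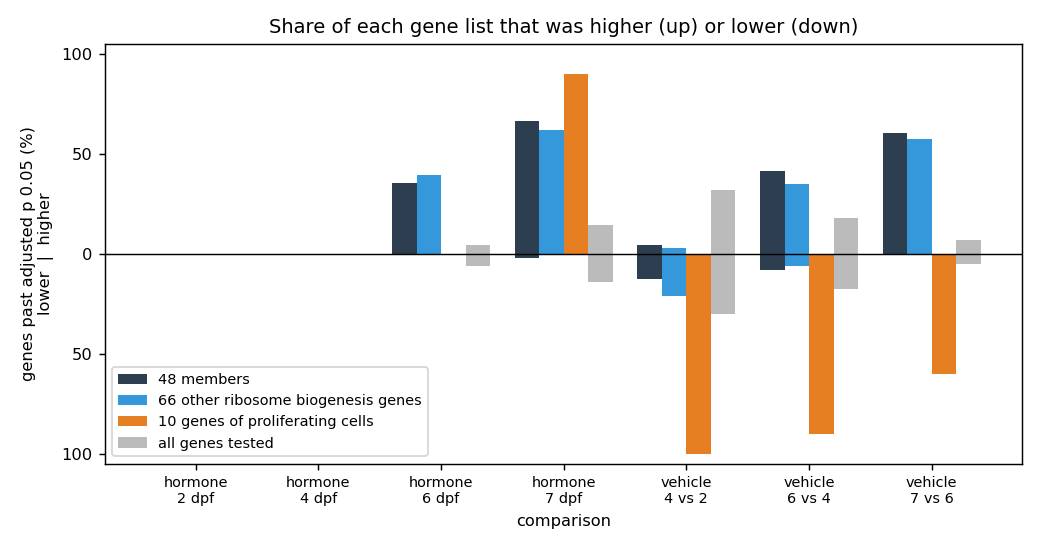
Share (%) of the 48 ribosome biogenesis factors, of further ribosome biogenesis genes, of proliferation genes and of all genes that passed as higher (bars up) or lower (bars down) in each comparison (x axis). At 6 and 7 dpf with calcitriol and from 6 to 7 dpf in vehicle the bars of the 48 genes, at 35.4%, 66.7% and 60.4%, are above those of all genes, at 4.37%, 14.6% and 7.1%.

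Genes of dividing cells were read beside them. Of 10 proliferation genes (pcna, mcm2 to mcm7, cdk1, ccnb1 and top2a), 10, 9 and 6 fell over the successive steps in vehicle, against 30.2%, 17.8% and 4.92% of all genes, and none rose. With calcitriol none passed at 6 dpf, and 9 were higher at 7 dpf, against 14.6% of all genes, with a median of 0.75. Their summed level was 409 to 629 CPM in vehicle at 7 dpf and 667 to 827 CPM with calcitriol, and 488 to 964 against 768 to 1082 CPM at 6 dpf. Their part in the differences of the 48 genes at 7 dpf was not tested.

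Markers of several organs moved with the hormone as well. Both exocrine pancreas markers in the table, out of 3 listed, were lower at 6 and 7 dpf, with a summed level of 3463 to 4371 CPM in vehicle at 7 dpf and 617 to 1012 CPM with calcitriol; from 4 to 6 dpf in vehicle their median log2 fold change was 2.10. Both liver markers, all 3 intestine markers and all 3 epidermis markers were lower at 6 and at 7 dpf too. Of all genes 6.32% and 14.2% were lower at these ages. Of 3 red blood cell markers, 2 were tested at 7 dpf and both were higher, against 14.6% of all genes. Markers of muscle, neurons, glia, lens, photoreceptors, cartilage and ionocytes were also listed and are not described here. None of the defining markers of pancreas, liver, intestine or epidermis was at 0 in any library, as for whole animals, and the part of these organs in the levels of the 48 genes was not tested.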

How the data were processed

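The authors deposited raw read counts per gene for 40 libraries, without normalization per the labels, and exon counts used here only to number libraries. Per the submitters' processing notes CASAVA 1.4 and HTSeq 0.5.3p3 were used; the aligner is not given in the sources used here. Reads were 51 bases, paired-end, from a poly-A kit that does not mark strand, so overlapping and antisense genes cannot be told apart. All columns were mapped to samples by their titles (0 were not).

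Counts were analysed in edgeR 4.0.16 (R 4.3.3) with filterByExpr, TMM factors and robust quasi-likelihood fits, each pair of groups separately, and with a treatment-by-age term over 40 libraries, tested over all ages and between pairs of ages. P-values were Benjamini-Hochberg adjusted over all genes tested (threshold 0.05). DESeq2 1.42.0, other scalings, no filter, leaving out libraries, replicate blocks and merged libraries were alternatives. The procedure was tested on simulated data with 100 genes changed by each size, among 13485 genes at 6 dpf and 13412 at 7 dpf. At 6 dpf 15% of changes of 0.4 (log2) and 94% of changes of 1.0 were recovered, and at 7 dpf 11% and 93%. Of the calls 7.63% and 3.70% were false. In the data 1444 and 3866 genes were called, many more than were changed there. The simulated rates therefore do not give the recovery of the 48 genes.

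Replicates of a group were not repeat deposits: chi-square per degree of freedom was 21.5 to 567 over 80 pairs. Libraries numbered 2 and 3, or 4 and 5, in the exon table were closer to each other (median 43.6 at 2 and 4 dpf and 53.0 at 6 and 7 dpf) than other pairs of a group (265 and 201), and at 6 and 7 dpf the ranges overlapped. Whether they are technical repeats is not stated, so an alternative summed them to 3 units per group. In treated groups the exon table counts replicate 5 first and then replicates 1 to 4, matched through genes whose totals (50 or more) were equal in both tables; vehicle numbers are the same. Same-numbered libraries of the exon table deviated together at 2, 4 and 6 dpf (lowest correlation 0.40, 0.65 and 0.22) but not throughout at 7 dpf (0.07). Those of the gene table did so for some numbers only (from -0.58 at 7 dpf to 0.67 at 4 dpf). Same-numbered vehicle libraries deviated together between successive ages (lowest correlation 0.37, 0.17 and 0.39). The main age comparisons were fitted without these pairs, which entered only in the alternative with the replicate number as a block.

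Members, gene lists and tests were chosen with earlier results of these data known. Named were core factors of each role, all members past the threshold where there were at most 10, otherwise the 2 with the smallest p per role and direction and any against the main direction, and for other lists up to 4 genes per comparison. Some further members were named after their values were seen. Of the core factors, polr1a, gar1, utp3, utp18, nol11, nop2, brix1 and exosc10 were not analysed here. Protein or promoter sequences were not used.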

Additional observations from a re-analysis of the deposited data

Results flagged for a closer look

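Single libraries lay far from the other 4 of their group in 14 of 136 sets of 5 values tested. Chance gives about 1 in 20 for independent sets, but these sets share libraries. They covered only a part of the 48 genes. In 12 of the 14 the library was the one with the lowest total count of its group. In vehicle at 2 dpf, replicate 1 had 129.9 CPM of fbl against 77.3 to 82.2 CPM in the others. At 4 dpf, vehicle replicate 1 had 18.6 CPM of rrp9 against 15.2 to 15.9 CPM. At 6 dpf, vehicle replicate 1 was high in noc4l (19.8 CPM against 13.3 to 14.6), rrp9 (23.1 CPM against 13.6 to 15.9) and gnl3 (72.2 CPM against 44.9 to 50.9). The median of the 48 genes in that library was 0.43 on the log2 scale against 0.03 to 0.14. At 7 dpf, vehicle replicate 1 was high in fbl (89.7 CPM against 67.1 to 71.8), nop58 (122.8 CPM against 79.4 to 87.4) and rrp9 (30.3 CPM against 17.6 to 19.7). Treated replicate 5 of 7 dpf was low in polr1b (26.7 CPM against 41.3 to 45.2), wdr75 (49.8 CPM against 76.5 to 82.7) and nol6 (21.3 CPM against 42.6 to 48.4). The 2 other libraries were both vehicle replicate 2 of 6 dpf, with 75.7 CPM of nmd3 against 63.9 to 66.4 CPM and 729 CPM of gtpbp4 against 577 to 618 CPM. The part of depth in these values was not tested.

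The hormone difference depended on age for noc4l (edgeR adjusted p = 0.0169) and rrp9 (edgeR adjusted p = 0.0464) in the test over all 40 libraries. Between 7 and 2 dpf it differed for noc4l, exosc2, rrp9, nhp2, exosc6, bop1, fbl, utp15, gnl3, exosc8 and wdr75, with edgeR adjusted p of 0.0037, 0.00981, 0.01, 0.0105, 0.0133, 0.0153, 0.0166, 0.0196, 0.0226, 0.0257 and 0.0378 in that order. It differed between 7 and 4 dpf for noc4l (edgeR adjusted p = 0.042) and between 6 and 2 dpf for nol10 (edgeR adjusted p = 0.0449). Of all genes 12.1% passed between 7 and 2 dpf, 6.69% between 7 and 4 dpf and 2.43% between 6 and 2 dpf.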

How the results depend on the processing

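The counts are of the 48 genes past an edgeR adjusted p of 0.05. At 4 dpf the count of 0 became 16 with the exon table numbers as replicate block and 5 with 3 merged units and their block. There 9.36% and 5.84% of all genes passed in either direction, in place of 0%. At 6 dpf the count of 17 became 37 without scaling factors, 27 with DESeq2 and 35 without the lowest-total libraries. It became 41 with the exon table numbers as replicate block and 6 with the label numbers as replicate block. With merged units it became 0, and 6 with their block. In the same order 17.4%, 16.3%, 26.1%, 25.6%, 6.82%, 0.366% and 8.14% of all genes passed, in place of 10.7%. At 7 dpf the count of 33 became 1 with merged units, with or without their block. Of all genes 5.66% passed with that block and 3.64% without it, in place of 28.8%. From 2 to 4 dpf in vehicle the count of 8 became 13 without scaling factors. It became 16 with the label numbers as replicate block and 13 without the lowest-total libraries. The share of all genes became 59.8%, 71.9% and 63.7% in the same order, in place of 62.2%. The interaction count of 2 became 4 with RLE factors, 24 without scaling factors and 14 with DESeq2. It became 8 with the label numbers as replicate block and 20 without the lowest-total libraries. The share of all genes became 7.89%, 12.4%, 10.7%, 9.38% and 22.7% in the same order, in place of 7.79%. The count of 11 for the hormone difference between 7 and 2 dpf became 29 without scaling factors and 23 without the lowest-total libraries. These alternatives were chosen after the data were seen, and 16.6% and 27.0% of all genes passed in them, in place of 12.1%. Leaving out 1 library gave 0 at 2 and 4 dpf, 4 to 30 at 6 dpf and 22 to 39 at 7 dpf. Over the successive steps in vehicle it gave 8 to 13, 16 to 28 and 23 to 38. For the interaction it gave 0 to 14, and 7 to 18 for the difference between 7 and 2 dpf. Of all genes, 0 to 1, 0 to 9, 849 to 2310 and 2773 to 5678 passed in these fits at 2, 4, 6 and 7 dpf. The steps had 7685 to 8484, 3819 to 6001 and 928 to 2683. The interaction had 832 to 1719 and the difference between 7 and 2 dpf 1242 to 2343. A single gene, bop1 from 4 to 6 dpf in vehicle, was not past the threshold at 0.03 and was -0.20 without scaling factors (edgeR adjusted p = 0.0377), a setting that moved the median of all genes there from -0.01 to -0.23. Merged units have fewer samples, and whether the summed libraries are technical repeats is not stated. Fits without the lowest-total libraries keep only those neighbouring libraries, so their spread may be too narrow. The cause of the shifts, those with merged units among them, was not tested. With the label numbers as replicate block the count of 33 at 7 dpf became 22, when 18.7% of all genes passed. Treated and vehicle libraries of the same label number had correlations of -0.50 to 0.32 at 6 dpf and -0.58 to 0.10 at 7 dpf. The cause of the calls lost under that block was not tested. No label pairs vehicle libraries across ages, and same-numbered ones were the closest match for 4, 3 and 3 of 5 over the successive steps. Under the block the counts of the 48 genes there were 16, 30 and 42, in place of 8, 24 and 29. Of all genes 9613, 6379 and 4404 passed, in place of 8325, 4838 and 1618. Counting error is small at 376 counts or more; the part of the library totals in the shifts was not tested.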

Other observations

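Genes of the Myc family, transcription factors known to act on ribosome biogenesis genes in growing cells, were measured in the same fits. Of a list of 19 Myc family genes and regulators, 12 were tested. With calcitriol mycn was 1.64-fold higher at 6 dpf (0.71 ± 0.07, edgeR adjusted p = 0.000178) and 2.17-fold higher at 7 dpf (1.11 ± 0.09, edgeR adjusted p = 6.04e-06). The gene mycl1a was 1.68-fold higher at 6 dpf (edgeR adjusted p = 0.00214) and 2.56-fold higher at 7 dpf (edgeR adjusted p = 2.07e-05). Of all genes 4.37% and 14.6% were higher at these ages. At 7 dpf mycl1b (0.73 ± 0.11) and mych (0.57 ± 0.17) were higher too, while myca (0.10 ± 0.11) and max, the dimer partner of Myc (0.22 ± 0.10), did not pass. With age in vehicle the course differed from gene to gene: from 4 to 6 dpf mych (1.03 ± 0.20), mycl1b (0.62 ± 0.11) and myca (0.49 ± 0.08) rose and mycl1a fell by 0.58 on the log2 scale. At that step 18.1% of all genes rose and 17.8% fell. From 6 to 7 dpf none of these 12 genes passed as a rise, against 7.1% of all genes, and mycl1a fell by 0.55 on the log2 scale. The part of Myc family genes in the differences of the 48 ribosome biogenesis factors was not tested.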
